A study of Astatotilapia calliptera and Pundamilia nyererei and Oreochromis niloticus with 31 samples.

Results

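Gypsy elements are long terminal repeat (LTR) retrotransposons. Their internal region, between a pair of LTRs, carries the gag and pol genes that encode the capsid and the enzymes for reverse transcription and integration, and the LTRs hold the promoter and the signals that end transcription. In animal gonads, PIWI-interacting RNAs (piRNAs) guide Piwi proteins to transcripts of transposable elements (TEs) with a matching sequence, and silencing follows. The data described here are piRNA-sized reads, 24 to 35 nucleotides long, that mapped to the internal regions of Gypsy families. A curated TE annotation of the Lake Malawi cichlids holds internal regions and LTRs as separate entries, and the members are the entries whose names begin with Gypsy and end with the tag for an internal region. Of 103 such entries, 6 (Gypsy-10, Gypsy-33, Gypsy-41, Gypsy-50, Gypsy-81 and Gypsy-107) were set aside by name, which leaves 97 of the 557 entries of the table. Membership goes by name, and the members were chosen with earlier results of these data known. All 6 entries set aside differed between TM and AC testes, and their values are given with the comparisons between species. Of the 97, 94 belong to a family that also has an LTR entry.

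The table covers 14 of the 31 small RNA libraries of a study that compared TEs and their piRNAs among cichlids of the East African lakes. The libraries come from wild-type animals: 1 from muscle of Astatotilapia calliptera (AC), 4 from testes of Tropheops sp. 'mauve' (TM), 2 from testes of Maylandia zebra (MZ), 4 from AC testes and 3 from AC ovaries. AC and TM were grown in aquaria and the MZ males came from a commercial supplier, so species and origin cannot be told apart for MZ. Reads of all 3 species were mapped to the AC genome, so divergence of an MZ or TM copy from the AC sequence and a lower number of piRNAs cannot be told apart either. The study's methods describe replicates as pieces of the same organ from size-matched individuals, and some ovary libraries had failed quality control before deposit. The values are regularised log values on the log2 scale, in which 1 unit is a factor of 2, without division by the length or the copy number of an entry. The table holds no genes, so the labelled organs were not checked against marker genes. In bulk organs, fewer cells of a type and less RNA per cell cannot be told apart.

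A pair of libraries and 1 entry outside the Gypsy group bear on the results. TM testes replicates 1 and 3 were closer to each other than any other pair of libraries of the same group: the SD of their difference over the 97 entries was 0.0271 on the log2 scale, against 0.143 to 0.196 in the other TM pairs. They still differed by more than an approximate counting error and were kept as separate libraries. That difference cannot show that they come from separate animals, so their independence was not settled. Comparisons with TM are therefore also given with both averaged. NA-DNA-22, a DNA element entry, took 37.6% of the summed linear TE values in the muscle library, 2.21% to 4.7% in TM testes, 8.93% and 2.37% in MZ testes, 1.45% to 1.85% in AC testes and 9.89% to 24.4% in AC ovaries. Its part in the results below was not tested beyond the rescaling given beside them.

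Of the summed linear TE values, Gypsy internal regions took a similar share in every group of gonads and a smaller one in muscle. These values are regularised log values put back on the linear scale, and not read counts. Their summed linear values made up 21.6% ± 0.238 of the sum over all TE entries in TM testes (SD, n = 4), 21.3% ± 1.13 in MZ testes (SD, n = 2), 20.6% ± 0.499 in AC testes (SD, n = 4) and 19.9% ± 1.76 in AC ovaries (SD, n = 3), against 8.19% in the muscle library. With NA-DNA-22 left out of the sum, the share was 22.3% ± 0.48 in TM testes, 22.6% ± 0.141 in MZ testes, 21% ± 0.55 in AC testes and 24.4% ± 0.924 in AC ovaries, against 13.1% in muscle. AC ovaries had the lowest mean share of the gonads with that entry in the sum, within the spread of the libraries, and the highest mean share without it. Without it, every ovary library (23.9% to 25.5%) lay above every testis library (20.5% to 22.8%), so the gonads were alike only with that entry in the sum. The median entry of the 97 lay at 10.81 in muscle, 11.28 to 11.33 in TM testes, 11.38 and 11.30 in MZ testes, 11.18 to 11.29 in AC testes and 11.46 to 11.59 in AC ovaries. In every library that median was above the median of all 557 entries, which ranged from 10.57 to 10.82.

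**Figure D1:**
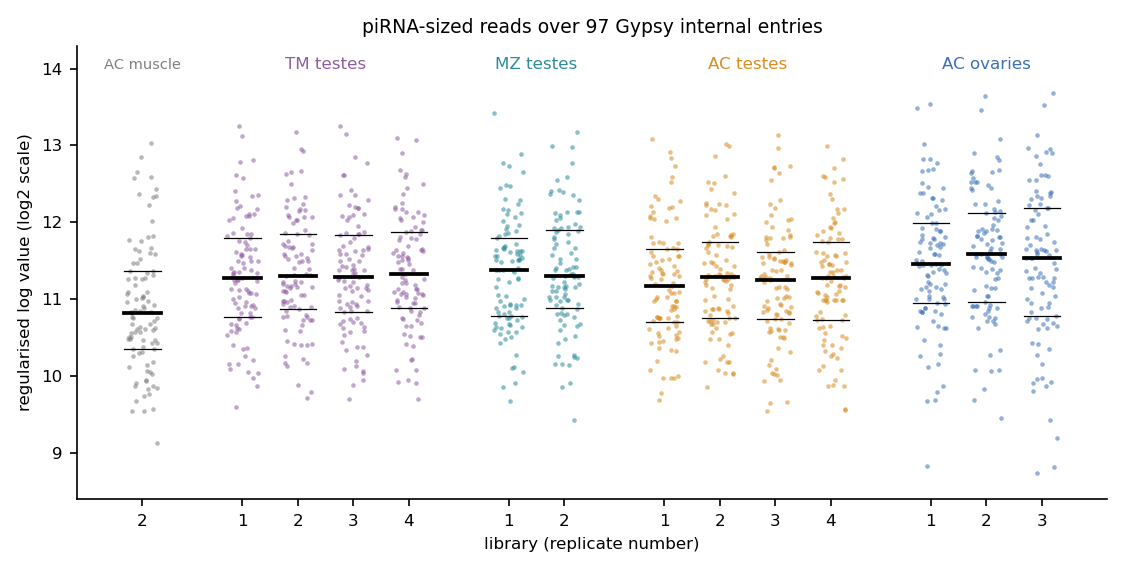
Regularised log values (log2 scale, vertical axis) of the 97 Gypsy internal entries in each of the 14 libraries (horizontal axis, replicate number within each group). Each point is an entry, thick bars are medians and thin bars are quartiles; the medians of the 3 AC ovary libraries, 11.46 to 11.59, lie above those of the 10 testis libraries, 11.18 to 11.38, and the muscle median, 10.81, lies below all of them.

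The order of the families was largely shared by the organs and species. Over the 97 entries, Spearman's rank correlation between group means was 0.88 to 0.89 among the testes of the 3 species, 0.77 to 0.83 between testes and AC ovaries, and 0.74 to 0.78 between muscle and any gonad group. These are descriptions across entries that share libraries and sequence, and entries are not independent replicates. All libraries were counted over 1 annotation without division by entry length or copy number, so part of a shared order is built in. Values of the muscle library, which has few TE reads, are also drawn towards the mean of each entry over the libraries. How much of the correlations this makes up was not tested. By mean over the 13 gonad libraries, the 5 highest entries were Gypsy-102 (13.20), Gypsy-61 (13.11), Gypsy-46 (12.77), Gypsy-54 (12.70) and Gypsy-56 (12.67). The 3 lowest were Gypsy-45 (9.93), Gypsy-27 (9.91) and Gypsy-2 (9.68). These are reads per entry, so the order is not an order of piRNAs per base.

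Gypsy-102, the highest entry, stood at 13.25, 13.18, 13.25 and 13.10 in TM testes, 13.42 and 13.18 in MZ testes, 12.74, 12.99, 12.96 and 12.82 in AC testes, and 13.49, 13.65 and 13.53 in AC ovaries. All 3 ovary libraries were above all 10 testis libraries. Gypsy-61, the next entry, stood at 12.82, 12.95, 12.84 and 13.07 in TM testes, 12.89 and 12.99 in MZ testes, 13.09, 13.02, 13.13 and 12.99 in AC testes, and 13.53, 13.46 and 13.68 in AC ovaries. Its TM libraries overlapped both MZ and AC testes, the higher MZ and the lowest AC library were nearly level, and the ovaries were again above every testis library. Gypsy-102 was lower in AC testes than in AC ovaries, with a change of -0.68 log2 units (limma, adjusted p = 0.000737), and so was Gypsy-61 (-0.50, adjusted p = 0.00159). Gypsy-46 ran the other way, with 12.91, 12.87, 12.71 and 12.61 in AC testes against 12.31, 12.49 and 12.31 in AC ovaries (0.40, adjusted p = 0.00912). Gypsy-54 and Gypsy-56 were lower in AC testes than in AC ovaries, with changes of -0.39 and -0.51 (adjusted p = 0.00859 and 0.00178).

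Of the 97 entries, 50 had their highest gonad mean in AC ovaries, 20 in MZ testes, 19 in TM testes and 8 in AC testes. The lowest gonad mean fell in AC testes for 43, in AC ovaries for 21, in TM testes for 18 and in MZ testes for 15. With the values as deposited, the lowest means were therefore most often those of AC testes. This tally depends on the scaling between libraries, which moves all entries of a library together. The same tally over all 557 entries is not given, so it does not set the Gypsy entries apart from other TEs. The comparison of the AC organs came out as follows.

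On the deposited scale, the internal regions of Gypsy families were more often lower than higher in AC testes relative to AC ovaries. Their median change lay below that of all TE entries. As a share of the summed TE values they were not lower, with 20.6% in AC testes and 19.9% in AC ovaries. Without NA-DNA-22 in the sum, the shares were 21% and 24.4%. Of the 97 entries, 48 were lower and 7 higher in AC testes at an adjusted p under 0.05 (limma, adjusted over all 554 entries tested), and 42 passed in neither direction. Over all entries tested, 21.3% were lower and 20.8% were higher, so the lower share of the Gypsy internal entries, 49.5%, was above that background and the higher share, 7.22%, below it. The median change was -0.31 (quartiles -0.60 and 0.05, range -1.17 to 0.86), against -0.01 over all entries. In 57 of the 97, the values of testes and ovaries did not overlap, against 48.2% of all entries. The 100 Gypsy LTR entries had 14 lower and 12 higher with a median of -0.12, and the 59 internal entries of other LTR families had 15 lower and 6 higher with a median of -0.18. Gypsy LTR entries mostly lay at lower levels than the internal entries, and whether level bears on their calls was not tested.

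The sign of these changes depends on how libraries are scaled to each other, because a common constant is then added to every entry. Scaled to the sum of all TE values, all entries moved up by 0.38 in testes, and 14 Gypsy internal entries were lower and 25 higher (14.4% and 25.8%, against 5.05% and 48.2% of all entries). Scaled to that sum without NA-DNA-22, the shift was 0.10, and 38 were lower and 12 higher (39.2% and 12.4%, against 15.7% and 27.6% of all entries). Scaled to all 24 to 35 nucleotide reads, of which TEs take different shares in the organs, the shift was 1.36, and 31 were higher and 0 lower by limma, with 0 lower also at an unadjusted p under 0.05. Over all entries, 54.9% were then higher and 0.181% lower. What the scaling cannot move is the position among TEs: under each of the 4 scalings the median of the Gypsy internal entries lay 0.30 below the median of all entries, with 68 of the 97 below that median and 29 above. All changes between AC organs below are on the deposited scale and are to be read relative to the median TE entry.

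**Figure D2:**
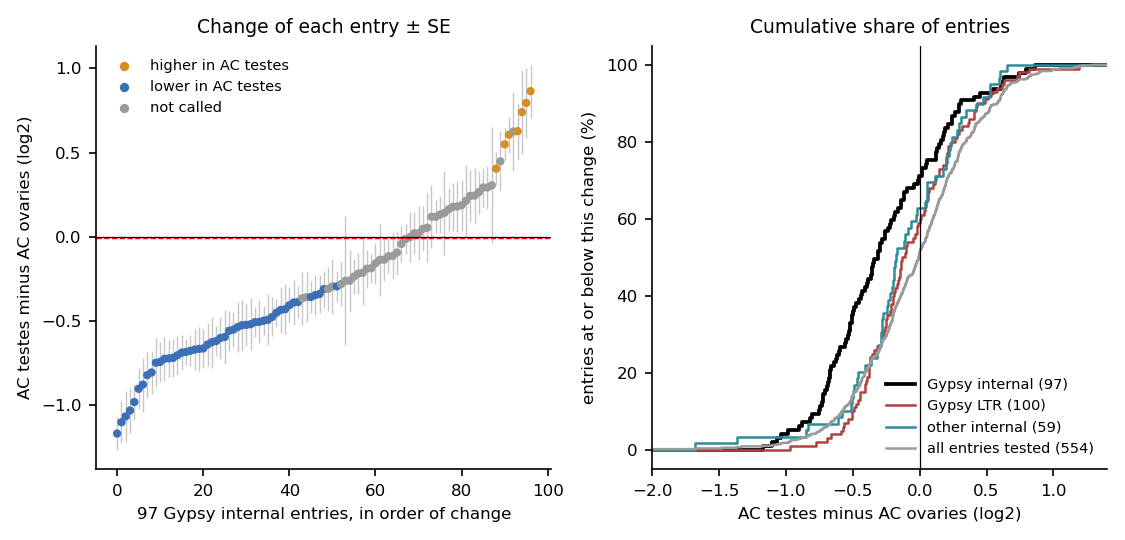
Left, change of each of the 97 Gypsy internal entries (AC testes minus AC ovaries, log2, vertical axis; bars are SE) in order of size, coloured by limma call; the red dashed line is the median of all 554 entries tested, -0.01. Right, cumulative share of entries (vertical axis, %) at or below a given change (horizontal axis, log2); the Gypsy internal entries, median -0.31, lie to the left of the Gypsy LTR entries, median -0.12, of the internal entries of other LTR families, median -0.18, and of all entries.

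Of the 48 lower entries, 35 changed by at least 0.5 and 4 by at least 1. In 47 the values did not overlap between the organs. Call and overlap come from the same libraries, so this adds little to the calls. The like share among all called entries is not given. The largest change was that of Gypsy-105. It stood at 11.56, 11.57, 11.47 and 11.45 in AC testes and at 12.67, 12.52 and 12.86 in AC ovaries. The 4 testis libraries were nearly level with each other, and all were far below the lowest ovary library. The change was -1.17 ± 0.097 (SE), 0.444 times the ovary level, with an adjusted p of 7.79e-05.

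Gypsy-77 stood at 10.76, 11.24, 11.03 and 10.97 in AC testes and at 12.21, 11.92 and 12.19 in AC ovaries (-1.10 ± 0.13, adjusted p = 0.000283). Gypsy-80 stood at 10.70, 11.25, 11.01 and 10.99 in AC testes and at 11.99, 11.89 and 12.19 in AC ovaries (-1.03 ± 0.13, adjusted p = 0.000497). These 2 entries ran almost level in every library: over the 14 libraries their values differed by -0.25 to 0.20, and over the 13 gonad libraries Pearson's r was 0.97. Reads with several genomic locations were counted at 1 location chosen at random, so related families can share reads, and the 2 may not be separate measurements. Of 4656 pairs of members, 49 had an r of at least 0.9 over the gonad libraries, and the median r was 0.14. Gypsy-77 and Gypsy-80 were named for a large change between AC organs. Such a shared change raises r, so that median is not a like comparison.

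Gypsy-116 stood at 10.56, 10.73, 10.51 and 10.73 in AC testes and at 11.47, 11.52 and 12.11 in AC ovaries (-1.07 ± 0.15, adjusted p = 0.000797). Its highest ovary library, replicate 3, stood above the other 2, and the testes stayed below all 3. Gypsy-108 stood at 11.73, 11.84, 11.55 and 11.84 in AC testes and at 12.69, 12.58 and 12.90 in AC ovaries (-0.98 ± 0.11, adjusted p = 0.000283). Gypsy-59 stood at 11.40, 11.69, 11.45 and 11.86 in AC testes and at 12.39, 12.52 and 12.60 in AC ovaries (-0.90 ± 0.12, adjusted p = 0.000739). Gypsy-108 and Gypsy-59 had an r of 0.96 over the 13 gonad libraries, but both were named for a large change between AC organs, which raises r. Over the 14 libraries their values differed by -0.02 to 0.97. Both had testes and ovaries apart by more than the range within either organ.

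The 7 entries that were higher in AC testes had changes of 0.40 to 0.86. Their values did not overlap between the organs, which again adds little to calls from the same libraries. Gypsy-32 had the largest: 10.37, 10.48, 10.62 and 10.23 in AC testes against 9.80, 9.69 and 9.20 in AC ovaries (0.86 ± 0.16, adjusted p = 0.00214). Gypsy-71 stood at 11.08, 11.14, 11.53 and 10.79 in AC testes against 10.29, 10.77 and 9.96 in AC ovaries (0.79 ± 0.21, adjusted p = 0.013), where the lowest testis and the highest ovary were nearly level. Gypsy-78 stood at 11.52, 11.19, 11.50 and 11.29 in AC testes against 10.84, 11.15 and 9.91 in AC ovaries (0.74 ± 0.25, adjusted p = 0.0366).

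Gypsy-2 stood at 9.69, 9.86, 9.54 and 9.56 in AC testes against 8.83, 9.46 and 8.82 in AC ovaries (0.63 ± 0.17, adjusted p = 0.015). AC ovaries replicate 3 was the lowest ovary library in Gypsy-71, Gypsy-78 and Gypsy-2. Without AC ovaries replicate 3, 4 entries were higher instead of 7, and the adjusted p was 0.0535 for Gypsy-71, 0.06 for Gypsy-78 and 0.059 for Gypsy-2. Gypsy-2 was also lost without AC ovaries replicate 1 (0.0595), and Gypsy-78 without AC ovaries replicate 1 or AC testes replicate 1, 3 or 4 (0.0569 to 0.0814). Gypsy-68 and Gypsy-87 had tighter replicates. Gypsy-68 stood at 10.63, 10.87, 10.60 and 10.56 in AC testes against 10.12, 10.08 and 9.98 in AC ovaries (0.61 ± 0.11, adjusted p = 0.00178), and Gypsy-87 at 11.33, 11.27, 11.37 and 11.46 against 10.83, 10.91 and 10.68 (0.55 ± 0.094, adjusted p = 0.00163).

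**Figure D3:**
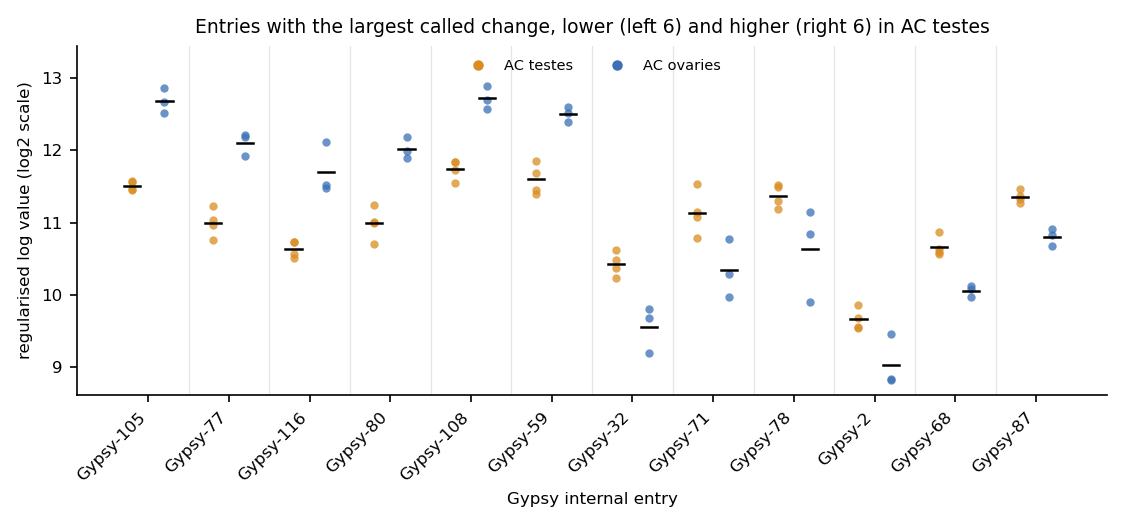
Regularised log values (log2 scale, vertical axis) of the Gypsy internal entries with the largest called changes between AC organs, each point 1 library, bars the group means, AC testes left of AC ovaries within each entry. The 6 lower entries have changes of -1.17 to -0.90 and the 6 higher entries 0.55 to 0.86; the ovary points of Gypsy-71, Gypsy-78 and Gypsy-2 spread widely.

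The levels of lower, higher and uncalled entries overlapped. The 48 lower entries had a median gonad mean of 11.39 (9.98 to 13.20), the 7 higher entries 10.96 (9.68 to 12.77) and the 42 others 11.29 (9.91 to 12.66). Of the 2 Gypsy families that the study lists as highly polymorphic, Gypsy-12 was high and did not pass the test, with 12.52, 12.44, 12.73 and 12.59 in AC testes against 12.29, 12.81 and 12.56 in AC ovaries (0.02 ± 0.13, adjusted p = 0.917). Gypsy-86, among the lowest entries, was lower in AC testes, with 9.78, 10.07, 9.95 and 10.08 against 10.62, 10.71 and 10.66 in AC ovaries (-0.69 ± 0.11, adjusted p = 0.00108).

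Entries also differed in how well replicates of a group repeated. The median SD within a group was 0.09 in TM testes, 0.15 in MZ testes, 0.19 in AC testes and 0.17 in AC ovaries. The TM value includes replicates 1 and 3, whose independence was not settled, so it may understate the spread. The 3 examples that follow were chosen after their values were seen. Gypsy-23 had the largest SD, 0.99 in AC ovaries, where replicate 2 stood at 12.53 and the others at 10.93 and 10.72. Gypsy-51 had the largest in AC testes, 0.76, with 12.22 and 12.00 in replicates 1 and 4 and 10.67 and 10.97 in the others. Gypsy-32 had the largest in MZ testes, 0.71, with 10.28 and 11.29. In these entries the spread between libraries of 1 group was several times that of the median entry.

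The internal region and the LTR of a family were compared within each library, which removes any scaling between libraries. In AC testes, internal regions were more often lower than higher relative to their own LTRs, in Gypsy and in families of any kind. The LTR entries of Gypsy families mostly lay at lower levels than the internal entries. Whether level bears on the difference between the parts, here or between species, was not tested. Of the 94 families with both entries, the internal minus LTR difference was lower in AC testes in 24 and higher in 2 (limma, adjusted over the 154 families of any kind with both entries). Over those 154 families, 23.4% were lower and 4.55% higher, against 25.5% and 2.13% in Gypsy, and the median change was -0.17 in both. The 94 Gypsy families are part of the 154, so these shares are not independent. Among the 55 families of other LTR groups, 9 were lower (16.4%) and 3 higher (5.45%), with a median of -0.13. Whether Gypsy differs from those families was not tested. Without AC testes replicate 4, 15 families were lower; without AC ovaries replicate 2, 6 were higher, and without AC ovaries replicate 1 or AC testes replicate 1, 3 or 4, 1 was.

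Across the 94 families, the change of the internal entry and that of the LTR entry went together loosely, with Pearson's r of 0.55 and Spearman's rho of 0.51, as a description across families that share libraries. The internal entry was lower in AC testes and the LTR entry not called in 35 families, both were lower in 12, and the internal entry was lower and the LTR entry higher in 1. Both were higher in 4, the internal entry alone was higher in 3, the LTR entry alone was lower in 2 and higher in 6, and neither was called in 31. The median change was -0.34 for the internal and -0.14 for the LTR entries of these families.

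In Gypsy-105 the internal entry changed and the LTR entry did not pass the test. The LTR entry averaged 10.63 in AC testes and 10.64 in AC ovaries, a change of -0.01 (adjusted p = 0.964). The internal minus LTR difference was 0.67, 1.13, 1.07 and 0.66 in AC testes and 2.04, 1.79 and 2.30 in AC ovaries (-1.16 ± 0.18, adjusted p = 0.0014). In Gypsy-117 the parts moved in opposite directions, the internal entry by -0.48 (adjusted p = 0.00912) and the LTR entry by 0.74 (adjusted p = 0.00403). Its difference was 2.01, 2.31, 2.12 and 2.46 in AC testes and 3.5, 3.44 and 3.38 in AC ovaries, without overlap (-1.22 ± 0.15, adjusted p = 0.000203). In Gypsy-108 the difference was 2.25, 2.47, 2.36 and 2.46 in AC testes and 3.67, 2.99 and 3.62 in AC ovaries (-1.04 ± 0.18, adjusted p = 0.00183), with an LTR entry that changed by 0.06 (adjusted p = 0.759).

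The families with a higher difference in AC testes were Gypsy-78 and Gypsy-2. In Gypsy-78 it was 6.34 to 6.5 in AC testes and 5.88, 6.03 and 5.23 in AC ovaries (0.73 ± 0.18, adjusted p = 0.0138). Its LTR entry averaged 4.93 in AC testes and 4.92 in AC ovaries, low in the table, and the family left the test at a minimum mean of 100 on the linear scale. In Gypsy-2 the difference was 3.67, 3.38, 3.63 and 3.77 in AC testes and 2.87, 3.52 and 2.5 in AC ovaries, with 1 ovary inside the range of the testes (0.65 ± 0.21, adjusted p = 0.0397). The call on Gypsy-2 was lost without AC ovaries replicate 1 or 3 (adjusted p = 0.118 and 0.142) and without AC testes replicate 1, 3 or 4 (0.0841, 0.0705 and 0.11).

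**Figure D4:**
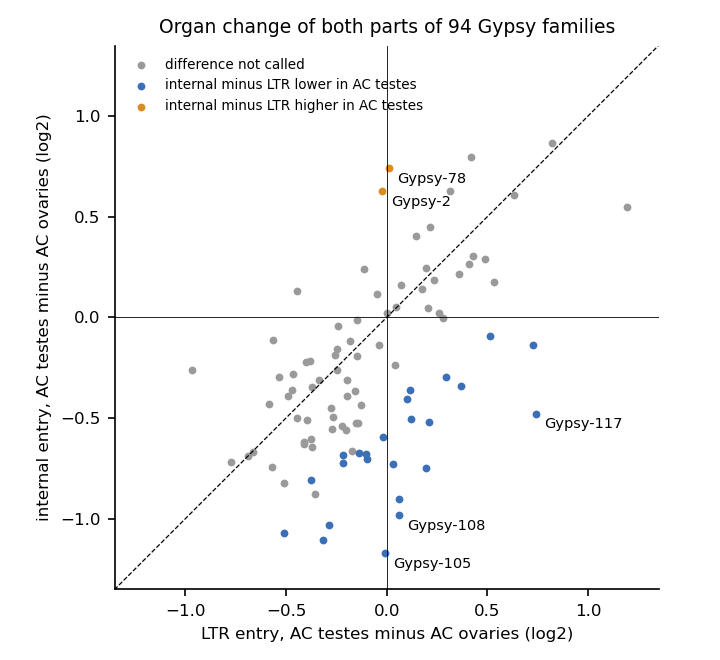
Change between AC testes and AC ovaries (log2) of the internal entry (vertical axis) against that of the LTR entry (horizontal axis) for 94 Gypsy families, coloured by the limma call on the internal minus LTR difference within libraries; the dashed line marks equal changes. In 62 families the point lies below the line, the 24 called lower all do, and Gypsy-105, Gypsy-108 and Gypsy-117 lie far below it.

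Between testes of the 3 Lake Malawi species, Gypsy internal regions differed in both directions, and so did TE entries as a whole. Against AC testes, 25 of the 97 entries were higher and 10 lower in TM testes (25.8% and 10.3%). In MZ testes, 10 were higher and 4 lower (10.3% and 4.12%). Over all 554 entries, 21.5% were higher and 20.9% lower in TM testes, and 9.03% were higher and 7.22% lower in MZ testes. The share lower in TM testes was below that of all entries, and the other shares were nearer to theirs. Whether they differ was not tested. The median change was 0.11 in TM testes and 0.12 in MZ testes, against 0.02 over all entries in both. Between TM and MZ testes, 14 entries were higher and 16 lower in TM testes (14.4% and 16.5%, against 10.5% and 12.8% of all entries). The median was -0.01, against 0.02 over all entries. With all gonad libraries in 1 fit, 4 were higher and 6 lower (4.12% and 6.19%, against 4.33% and 6.5% of all entries). Each of the 3 groups of testes serves in 2 of these comparisons, so their counts are not independent. Without TM testes replicate 1 or 3, 5 or 6 entries were lower in TM than in AC testes. Here and wherever the fit or the libraries in it are changed, shares over all entries are not given unless printed beside the count. A change in such a count cannot be told apart from a change in calls across the whole table.

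The 6 entries set aside by name bear on these counts, since all of them passed the test between TM and AC testes. In TM against AC testes, 2 of the 6 were higher (changes of 1.16 for Gypsy-10 and 1.11 for Gypsy-81) and 4 lower (-1.07 for Gypsy-33, -1.03 for Gypsy-50, -0.82 for Gypsy-107 and -0.47 for Gypsy-41). In MZ against AC testes, Gypsy-107 (0.97), Gypsy-81 (0.85) and Gypsy-10 (0.68) were higher and Gypsy-41 (-1.22) was lower. In TM against MZ testes, Gypsy-107 (-1.79) and Gypsy-50 (-1.19) were lower and Gypsy-41 (0.75), Gypsy-10 (0.47) and Gypsy-81 (0.27) were higher. By limma, the Gypsy-33 call was lost without AC testes replicate 1 or 3 or any 1 of the TM libraries (adjusted p = 0.0526 to 0.0633), and with TM testes replicates 1 and 3 averaged (0.056). In MZ against AC testes, the calls on Gypsy-107 without AC testes replicate 1 or MZ testes replicate 2 (0.0509 and 0.12), on Gypsy-10 without MZ testes replicate 1 or 2 (0.0665 and 0.103) and on Gypsy-41 without MZ testes replicate 1 (0.0616) were lost. In TM against MZ testes, the call on Gypsy-81 was lost without TM testes replicate 1, 2 or 3 (0.0611 to 0.0715) and with replicates 1 and 3 averaged (0.0605). In the fit of all gonad libraries the calls on Gypsy-41 against AC testes (0.109) and on Gypsy-41 and Gypsy-81 between TM and MZ testes (0.0887 and 0.14) were lost. With the 6 counted in, TM testes had 27 higher and 14 lower against AC testes (26.2% and 13.6%). MZ testes then had 13 higher and 5 lower against AC testes (12.6% and 4.85%). TM testes had 17 higher and 18 lower against MZ testes (16.5% and 17.5%). The counts over the 97 entries are thus below those over all 103 Gypsy internal regions.

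Gypsy-117 had the largest difference among the 97. It stood at 12.36, 12.33, 12.36 and 12.25 in TM testes, 11.63 and 11.92 in MZ testes and 11.00, 11.29, 11.47 and 11.19 in AC testes. The 3 species did not overlap, in the order TM, MZ, AC. TM exceeded AC testes by 1.09 ± 0.089 (2.12 times the AC level, adjusted p = 3.75e-05), MZ exceeded AC testes by 0.54 ± 0.14 (adjusted p = 0.0417), and TM exceeded MZ testes by 0.55 ± 0.084 (adjusted p = 0.00476). Within libraries its internal minus LTR difference was 2.97 to 3.04 in TM testes against 2.01 to 2.46 in AC testes (0.77 ± 0.1, adjusted p = 0.000235).

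Gypsy-55 stood apart in TM testes, with 10.91, 10.89, 10.91 and 10.96 there, 10.05 and 10.49 in MZ testes, and 10.34, 10.04, 10.09 and 9.87 in AC testes. TM exceeded AC testes by 0.83 ± 0.09 (adjusted p = 0.000136) and MZ testes by 0.65 ± 0.11 (adjusted p = 0.00725), while the MZ and AC libraries overlapped. Gypsy-116 stood at 11.31, 11.39, 11.34 and 11.51 in TM testes and 10.56, 10.73, 10.51 and 10.73 in AC testes (0.75 ± 0.07, adjusted p = 5.51e-05). Its LTR entry moved by 0.77 and the internal minus LTR difference by -0.01 (adjusted p = 0.944), so both parts of this family were higher in TM testes by near equal amounts.

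At the lower end in TM testes, Gypsy-73 stood at 10.61, 10.94, 10.64 and 11.06 in TM testes, 11.66 and 12.06 in MZ testes and 11.65, 11.35, 11.53 and 11.80 in AC testes. TM was below AC testes (-0.77 ± 0.12, adjusted p = 0.00135) and below MZ testes (-1.05 ± 0.16, adjusted p = 0.00476), and all TM libraries were below all others. Gypsy-13 was highest in AC testes, with 10.15, 10.41, 10.19 and 10.38 in TM testes, 10.12 and 9.91 in MZ testes and 10.98, 10.89, 10.60 and 11.05 in AC testes. The change from AC testes was -0.60 ± 0.1 in TM (adjusted p = 0.00214) and -0.87 ± 0.14 in MZ (adjusted p = 0.0151), and that of its LTR entry was -0.59 in TM and -1.10 in MZ testes.

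Gypsy-51 was lower in TM testes, with 10.35, 10.42, 10.38 and 10.65 against 12.22, 10.67, 10.97 and 12.00 in AC testes (-1.02 ± 0.31, adjusted p = 0.0269). The highest TM library and the lowest AC library were nearly level, and the AC libraries fell into a high and a low pair. Without AC testes replicate 1 the change was -0.77 (adjusted p = 0.0576), without AC testes replicate 4 it was -0.84 (adjusted p = 0.0661), and leaving out TM testes replicate 1, 2 or 3 gave adjusted p-values of 0.0565 to 0.0621. With TM testes replicates 1 and 3 averaged it was -0.99 (adjusted p = 0.062), and 21 of the 97 entries were higher and 5 lower in TM than in AC testes. Whether other TE entries lost calls alike in that fit was not tested.

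Gypsy-30 had the largest increase in MZ over AC testes. It stood at 10.94 and 11.52 in MZ testes, 10.44, 10.03, 10.31 and 10.40 in AC testes and 10.41, 10.46, 10.44 and 10.50 in TM testes. MZ exceeded AC testes by 0.94 ± 0.18 (1.92 times the AC level, adjusted p = 0.0207), and TM was below MZ testes (-0.78 ± 0.14, adjusted p = 0.00895). Its LTR entry moved by 0.08 between MZ and AC testes, and the internal minus LTR difference was 1.79 and 2.13 in MZ testes against 1.43, 0.77, 1.19 and 1.02 in AC testes (0.86 ± 0.19, adjusted p = 0.0311). That call was lost without AC testes replicate 4 (adjusted p = 0.0663) or MZ testes replicate 1 or 2 (0.091 and 0.271).

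Gypsy-25 stood at 10.64 and 10.60 in MZ testes against 9.98, 10.18, 9.67 and 10.08 in AC testes (0.64 ± 0.15, adjusted p = 0.0298), and Gypsy-48 at 12.07 and 12.13 against 11.38, 11.72, 11.25 and 11.51 (0.63 ± 0.13, adjusted p = 0.0207). At the lower end in MZ testes, besides Gypsy-13, Gypsy-11 stood at 10.84 and 10.77 in MZ testes against 11.21, 11.84, 11.27 and 11.78 in AC testes (-0.72 ± 0.19, adjusted p = 0.0429). Gypsy-105 stood at 11.05 and 11.00 in MZ testes against 11.56, 11.57, 11.47 and 11.45 in AC testes (-0.49 ± 0.081, adjusted p = 0.0151). Entries were named only if the groups did not overlap, so their separation is part of the choice. Over all entries tested, 41.9% had no overlap. With 2 MZ libraries, the calls depended on each of them: by limma, 1 entry was higher and 0 lower without MZ testes replicate 1, where 10 were lower at an unadjusted p under 0.05. Without MZ testes replicate 2, 0 passed in either direction, with 13 higher and 6 lower at an unadjusted p under 0.05. Gypsy-30 kept its call without MZ testes replicate 1, and its adjusted p was 0.103 without replicate 2; the other 5 entries named here lost theirs without either library (adjusted p of 0.0616 to 0.175).

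Libraries of AC testes moved these counts too. In MZ testes, 2 entries were higher without AC testes replicate 1, 5 were higher without AC testes replicate 4, and 2 were lower without AC testes replicate 2. Gypsy-25 and Gypsy-48 lost their calls without AC testes replicate 1 (adjusted p = 0.0665 and 0.0519), and Gypsy-11 without AC testes replicate 2 or 4 (0.0717 and 0.0742). The MZ call on Gypsy-117 was lost without AC testes replicate 1, 2 or 4 (0.0701 to 0.0747) and without MZ testes replicate 1 or 2 (0.0665 and 0.218). Scaled to all 24 to 35 nucleotide reads, all entries moved by -0.39 in MZ relative to AC testes, and 1 Gypsy internal entry was higher and 36 lower (1.03% and 37.1%, against 1.62% and 56.7% of all entries). Scaled to the TE total, 5 were higher and 6 lower (5.15% and 6.19%, against 6.14% and 12.1% of all entries). Relative to the median of all entries, 67 of the 97 lay above it and 30 below under each scaling.

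Between TM and MZ testes, the largest gaps besides Gypsy-117, Gypsy-55, Gypsy-73 and Gypsy-30 were those of Gypsy-71 and Gypsy-95. Gypsy-71 stood at 11.47, 11.31, 11.45 and 11.25 in TM testes against 10.78 and 10.65 in MZ testes (0.65 ± 0.083, adjusted p = 0.00208), and its LTR entry differed by as much, 0.67. Gypsy-95 stood at 9.98, 9.71, 9.95 and 9.94 in TM testes against 10.57 and 11.16 in MZ testes (-0.97 ± 0.16, adjusted p = 0.00557). Here the LTR entry differed by 0.14 and the internal minus LTR difference by -1.11 ± 0.13 (adjusted p = 0.000212). With TM testes replicates 1 and 3 averaged, 8 entries were higher and 9 lower in TM than in MZ testes, and leaving out TM testes replicate 1, 2 or 3 gave 8 to 9 higher and 9 lower. Scaled to all 24 to 35 nucleotide reads, all entries moved by 0.35, and 61 were higher and 3 lower (62.9% and 3.09%, against 68.1% and 2.53% of all entries).

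Within libraries, the internal minus LTR difference was higher in TM than in AC testes in 13 of 94 Gypsy families and lower in 19, against 16.2% and 22.1% of all 154 families. It was higher in MZ than in AC testes in 3 and lower in 1, against 3.9% and 0.649%, and higher in TM than in MZ testes in 9 and lower in 15, against 8.44% and 15.6%. The Gypsy families are part of the 154, so these shares are not independent. Of the 55 families of other LTR groups, 18.2% were higher and 21.8% lower in TM than in AC testes. In MZ against AC testes, 1 of them was higher and 0 lower by limma. In TM against MZ testes, 5.45% of them were higher and 12.7% lower. Whether Gypsy differs from those families was not tested. Between MZ and AC testes, leaving out AC testes replicate 3 gave 6 higher and 3 lower, and leaving out AC testes replicate 2 gave 4 lower. By limma, 0 were higher and 0 lower without AC testes replicate 4 (9 and 13 at an unadjusted p under 0.05) and without MZ testes replicate 2 (7 and 10), and without MZ testes replicate 1, 1 was higher and 0 lower (9 lower at an unadjusted p under 0.05). Without MZ testes replicate 2, 19 families were higher in TM than in MZ testes.

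**Figure D5:**
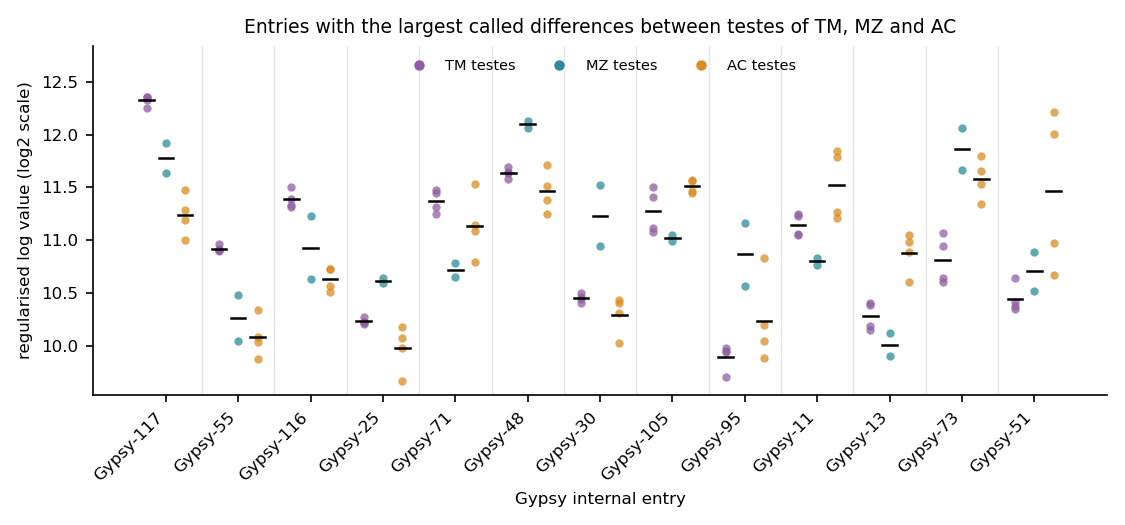
Regularised log values (log2 scale, vertical axis) of the 13 Gypsy internal entries with the largest called differences between species, each point 1 library, bars the group means, in the order TM testes, MZ testes, AC testes within each entry. Gypsy-117 falls into 3 separate levels, Gypsy-55 stands out in TM testes and Gypsy-30 in MZ testes, and the 4 AC points of Gypsy-51 range from 10.67 to 12.22.

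The entries that set AC testes apart from AC ovaries were given a side by side look in the other species, with the same 3 ovary libraries in each difference, which the comparisons therefore share. For the 48 entries lower in AC testes, the median difference from AC ovaries was -0.52 in TM testes, -0.46 in MZ testes and -0.61 in AC testes. For the 7 higher entries it was 0.77 in TM testes, 0.70 in MZ testes and 0.63 in AC testes. For the 42 entries not called it was 0.09 in TM testes, 0.09 in MZ testes and 0.01 in AC testes. The called entries were chosen by a test on the same ovary libraries. That choice favours the same sign in any other testes, and the AC values are those of the choosing test itself. No TM or MZ ovaries are in the table, so these values compare testes of 1 species with ovaries of another and species and organ cannot be told apart.

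Muscle, a somatic tissue, had low values of Gypsy internal regions. The study used muscle as a somatic control and saw no prominent small RNAs of piRNA length with the sequence signatures of piRNAs there. Muscle reads of that size are therefore not taken as piRNAs here. The muscle library allows no test and, by the study's mapping totals, has few TE reads. Regularised log values of a library with few reads are drawn towards the mean of each entry over the libraries, so small differences carry little. All muscle differences here are on the deposited scale. Each other scaling, given at the end, moved all muscle entries down together relative to the gonads. A value above the gonads is therefore to be read relative to the median TE entry, and not as more reads in muscle. The median difference of muscle from the mean of AC testes and AC ovaries was -0.58 over the 97 entries (-1.59 to 1.68), against -0.08 over all 557. Muscle was below that mean in 82 and above it in 15. It was below each of the 7 AC gonad libraries in 54 and above each of them in 8 (55.7% and 8.25%, against 31.1% and 29.6% of all entries). Among the 59 internal entries of other LTR families it was below each in 33. The Gypsy LTR entries had a median of 0.12 and the internal entries of other LTR families -0.54.

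The lowest entries of muscle relative to gonads were Gypsy-105, Gypsy-61 and Gypsy-73, with 10.51, 11.82 and 10.44 in muscle and differences of -1.59, -1.49 and -1.41. The highest, on the deposited scale, were Gypsy-15, Gypsy-70 and Gypsy-82. Gypsy-15 stood at 12.86 in muscle against 10.72 to 10.99 in AC testes and 11.34 to 11.79 in AC ovaries, a difference of 1.68. Gypsy-70 stood at 12.57 in muscle against 11.23 to 11.66 in AC testes and 10.95 to 11.22 in AC ovaries (1.31), and Gypsy-82 at 12.32 against 11.30 to 11.83 and 11.15 to 11.67 (0.85). Gypsy-12 was the highest entry of the muscle library, at 13.03, while Gypsy-102, the highest of the gonads, stood at 12.34.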

How the data were processed

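Small RNA libraries were analysed from the values the authors deposited, regularised log values on the log2 scale computed with DESeq2, per TE entry and library. Per the study's methods, reads were trimmed and selected for 24 to 35 nucleotides with cutadapt 1.15, mapped to the AC genome with STAR 2.5.4b (up to 100 hits, 2 mismatches, 1 location drawn at random) and counted with featureCounts 1.6.0 over the curated TE annotation. The deposited values hold no counts. Read totals per library, taken from the study, entered the scaling to all 24 to 35 nucleotide reads and are not printed here. The 4 other tables, whose families carry no Gypsy names, were not used.

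The minimum for a test was a mean linear value of 10 (3.32 as log2), and entries above it went into limma 3.58.1 in R 4.3.3 (mean trend, Benjamini-Hochberg over all entries, two-sided, threshold 0.05 after adjustment), fitted separately for each pair of groups. All 97 Gypsy internal entries passed this minimum. The internal minus LTR difference within a library was tested likewise without the trend. No pseudocount was added in the main test. Scripts were tested on simulated data.

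The members, lists and tests were chosen with earlier results of these data known. Entries were named by rule: the largest called changes without overlap (6 in each direction between organs, 3 between species), the 5 highest and 3 lowest levels, Gypsy-12 and Gypsy-86, the 3 extremes of muscle in each direction, the 3 largest changes of the internal minus LTR difference, and the 6 entries set aside. Alternatives were the minimum, a pseudocount of 10, the scaling (library totals from the study), the samples in the fit, the trend, a replicate block, each library left out, TM testes replicates 1 and 3 averaged, and the 6 entries counted in.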

Additional observations from a re-analysis of the deposited data

Results flagged for a closer look

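In the 68 groups of 4 libraries looked at among the named entries, 1 library stood far from the others of its group. Gypsy-95 in TM testes replicate 2 stood at 9.71, while the other 3 TM libraries stood between 9.94 and 9.98, a gap of 0.875 of the whole range. Chance gives such a gap in about 1 in 20 groups. All 4 TM libraries stayed below both MZ libraries for this entry.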

How the results depend on the processing

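A minimum mean of 0 or 100, a pseudocount of 10 and the omission of the mean trend left the counts of called entries within 1.5 times the main count, except that the internal minus LTR difference was higher in 1 family between AC organs at a minimum of 100, lower in 2 between MZ and AC testes with the pseudocount, and 2 entries were lower in MZ than in AC testes without the trend. Of 30 named entries and comparisons, 12 kept direction and side of the threshold in every alternative run, 12 lost the call in some and 6 reversed, all 6 under a scaling. The deposited values carry no counts, so counting error was approximated only between replicate libraries.

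Scaled to the TE total, 25 entries were higher and 14 lower in AC testes than in AC ovaries with a median of 0.065, 5 were higher in MZ than in AC testes with a median of 0.062, the median between TM and MZ testes was 0.026, and the muscle median was -1.44. Without NA-DNA-22 in that total, 12 were higher in AC testes, with medians of -0.21 there and -0.92 in muscle. Scaled to all 24 to 35 nucleotide reads, 31 were higher and 0 lower in AC testes (median 1.05), 1 was higher and 36 lower in MZ than in AC testes (median -0.27), 61 were higher and 3 lower in TM than in MZ testes (median 0.35), and the muscle median was -6.35. Under this scaling the change between AC organs was 0.19 for Gypsy-105, 0.26 for Gypsy-77, 0.29 for Gypsy-116, 0.33 for Gypsy-80, 0.38 for Gypsy-108 and 0.46 for Gypsy-59, with adjusted p-values of 0.447 to 0.751. The construction of the alternative, a constant per library, gives these shifts.

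With all gonad libraries in 1 fit, 17 entries were higher in MZ than in AC testes, 4 were higher and 6 lower in TM than in MZ testes, and the internal minus LTR difference was higher in 4 families between AC organs, higher in 5 and lower in 5 between MZ and AC testes, and higher in 2 and lower in 6 between TM and MZ testes. With TM testes replicates 1 and 3 averaged, 5 entries were lower in TM than in AC testes, and 8 were higher and 9 lower in TM than in MZ testes with a median of 0.012. In the single fit the adjusted p of Gypsy-71 between TM and MZ testes was 0.0528. The causes were not tested, and a change in these counts cannot be told apart from a change in calls across the whole table.

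Deviations of same-numbered libraries from their group means gave no clear sign that the replicate numbers pair the samples. Their correlations were -0.10 to -0.05 between AC organs and 0.02 to 0.18 between TM and AC testes. Between MZ and AC testes they were -0.11 to -0.08, and between TM and MZ testes -0.36 to -0.21. With so few libraries per group, such correlations cannot exclude a pairing. The 2 MZ libraries deviate from their mean in mirror image, so the values with MZ are not separate. With the replicate block, Gypsy-55 between TM and MZ testes had an adjusted p of 0.0581, 8 entries were higher and 42 lower in AC testes than in AC ovaries, 6 were higher in MZ than in AC testes, and 2 were higher and 3 lower in TM than in MZ testes. Under the block, the internal minus LTR difference was higher in 1 and lower in 10 families between AC organs. It was lower in 3 between MZ and AC testes. Between TM and MZ testes it was higher in 0 and lower in 0 by limma (8 and 11 at an unadjusted p under 0.05). Shares over all entries or families under the block are not given. With the block, the adjusted p between TM and MZ testes was 0.167 for this difference in Gypsy-95, 0.0959 for the level of Gypsy-10 and 0.262 for that of Gypsy-81, and between AC organs it was 0.123 for the difference in Gypsy-2.

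Leaving out 1 library gave 4 to 9 higher and 41 to 46 lower entries between AC organs, 21 to 33 and 5 to 11 between TM and AC testes, 0 to 8 and 0 to 4 between MZ and AC testes, and 8 to 21 and 9 to 19 between TM and MZ testes, where the median was -0.019 to 0.016. The internal minus LTR difference was then higher in 1 to 6 and lower in 15 to 20 families between AC organs, 0 to 6 and 0 to 4 between MZ and AC testes, and 6 to 19 and 12 to 19 between TM and MZ testes.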
